A study of Homo sapiens with 9 samples.

Results

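The genes described here are 9 feedback genes of the bone morphogenetic protein (BMP), SMAD and Notch pathways: ID1, ID2, ID3, ID4, SMAD6, SMAD7, BAMBI, HES1 and HEY1. They were taken by name, as the rows of the gene table whose Ensembl identifiers carry these symbols, and are 9 of 60675 rows. The choice was made with earlier results of these data known. All 9 passed the filter on low counts and were tested. The cells were SW1783, an established human astrocytoma line kept in L-15 with 10% serum (FBS), and RNA for sequencing was taken after 24 h of treatment. The groups were vehicle (DMSO, 3 libraries) and 70% ethanol extracts of Poria Cocos, a fungus, or Atractylodis Rhizoma, a plant rhizome, at 20, 100 or 500 µg/mL, with 1 library for each extract and dose. The sample labels give 0.1% DMSO for the vehicle and the series design gives 2%, and the labels give no DMSO content for the extracts. All 9 libraries come from one labelled batch of one cell line. The vehicle libraries carry replicate numbers 1, 2 and 3, and all treated libraries carry number 2 and sample names of another series. The labels do not say what these names mark, so any difference that goes with them cannot be told apart from treatment. The labels also do not say whether libraries are separate cultures, so p-values cover the spread among these libraries, part of which may be technical.

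BMP ligands act through receptor kinases that phosphorylate SMAD1, SMAD5 and SMAD9, which join SMAD4 and switch on target genes in the nucleus. The ID genes are among the direct targets, and their proteins hold back basic helix-loop-helix (bHLH) transcription factors. SMAD6, SMAD7 and BAMBI are induced by the same signals and dampen them. In Notch signalling a ligand on a neighbouring cell leads to cleavage of the receptor, whose inner part joins RBPJ on DNA, and HES1 and HEY1 are classic targets that encode repressors. In the glial lineage, ID and HES proteins are known for holding cells back from neuronal differentiation.

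The stretches before the transcription start of 4 of these genes show motifs through which the pathways are known to act. RefSeq promoters (GRCh38.p14, 250 bases before to 50 after each start, 35116 promoters) covered 8 of the 9 genes. All 4 stretches lie on the plus strand and are given 5′ to 3′. The start meant here is that of the RefSeq promoter, which differs from the gene start given with each gene below. The SMAD6 and BAMBI stretches run past that gene start, and their last marked motif spans it. The HES1 stretch (chr3:194135995-194136144) is shown for the RBPJ motif GTGGGAA, in capitals, which starts 85 bases before the start. The ID1 stretch (chr20:31605133-31605282) is shown for the N box CACNAG, a motif bound by HES proteins, which starts 140 bases before the start. In SMAD6 (chr15:66702172-66702231) the capitals mark the palindrome GTCTAGAC, bound by SMADs, which starts 12 bases before the start, and in BAMBI (chr10:28677271-28677345) they mark 3 copies of the GC-rich SMAD motif GGCGCC.
HES1: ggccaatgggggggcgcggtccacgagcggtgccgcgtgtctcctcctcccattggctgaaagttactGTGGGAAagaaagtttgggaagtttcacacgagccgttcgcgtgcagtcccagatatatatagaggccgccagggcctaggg
ID1: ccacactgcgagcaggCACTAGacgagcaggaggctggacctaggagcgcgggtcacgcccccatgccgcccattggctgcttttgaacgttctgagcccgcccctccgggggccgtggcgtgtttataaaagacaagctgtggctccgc
SMAD6: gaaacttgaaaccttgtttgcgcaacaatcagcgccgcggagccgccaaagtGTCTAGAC
BAMBI: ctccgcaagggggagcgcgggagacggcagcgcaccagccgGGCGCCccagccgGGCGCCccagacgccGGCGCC
On either strand, GTGGGAA was present in 6.25% of all promoters of the table and, among the 8 genes, in HES1. GTCTAGAC was present in 0.202% of all promoters, and SMAD6 was the member that held it. GGCGCC was present in 19.2% of all promoters and in BAMBI alone among the members, while CACNAG was present in 38.0% and in BAMBI, HES1, ID1 and SMAD7. A further motif of HES proteins, CACGCG, was present in 11.4% of all promoters and in HES1, at 2 places, 120 and 47 bases before the start. No match of one motif overlapped a match of another in these promoters, and a match describes the letters in this window only.

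In vehicle cells ID1 and ID3 stood far above the other genes. Per kilobase of the longest annotated transcript, the level in CPM (counts scaled to library size) was 203 ± 0.82 for ID1 and 158 ± 3.45 for ID3 (SD, n = 3). HES1 (16.7 ± 0.31), ID2 (11.7 ± 0.77), BAMBI (6.88 ± 0.40) and SMAD7 (4.71 ± 0.20) followed on the same scale. SMAD6 (2.84 ± 0.06), HEY1 (2.25 ± 0.19) and ID4 (1.42 ± 0.03) were the lowest. No neighbouring pair in this order had overlapping SDs. ID4 and HEY1 rested on as few as 115 and 183 counts in a library, which gives a counting error of 9.33% and 7.39%. For ID1, with at least 9893 counts, it was 1.01%. All levels below are CPM without the length, scaled by library total and TMM factor (trimmed mean of M-values), and are compared within a gene.

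ID1 had a positive trend with both extracts. SMAD6, SMAD7 and HES1 had a negative trend over vehicle and Poria, and BAMBI and HEY1 a positive one over vehicle and Atractylodis. Over the treated doses alone, ID1 passed for both extracts and SMAD6 for Poria, while SMAD7, HES1, BAMBI and HEY1 did not pass, so a change with dose apart from the difference to vehicle is not shown for them. The changes were small, at most 36.4% from the vehicle mean among the called values at 500 µg/mL. Trends were fitted over vehicle and the 3 doses of each extract as a log2 slope per 5-fold dose step, in 1 model over the 9 libraries, and tested with edgeR's quasi-likelihood test adjusted over 18356 genes. For Poria 4 of the 9 genes passed, 1 up and 3 down, where 20.8% of all genes tested passed (9.16% up and 11.6% down). For Atractylodis 3 of 9 passed, all up, against 19% of all genes (8.49% up and 10.5% down). Both shares of members were above the background. The 9 genes were chosen by name with earlier results of these data known. The higher shares are therefore not a result about the set, and no test of them is given. Both trends share the vehicle libraries. Each of these 7 calls ended when dose itself replaced the dose step (adjusted p from 0.0594 for SMAD6 with Poria to 0.458 for ID1 with Atractylodis), a scale on which 125 and 67 of all genes passed in place of 3815 and 3495.

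**Figure D1:**
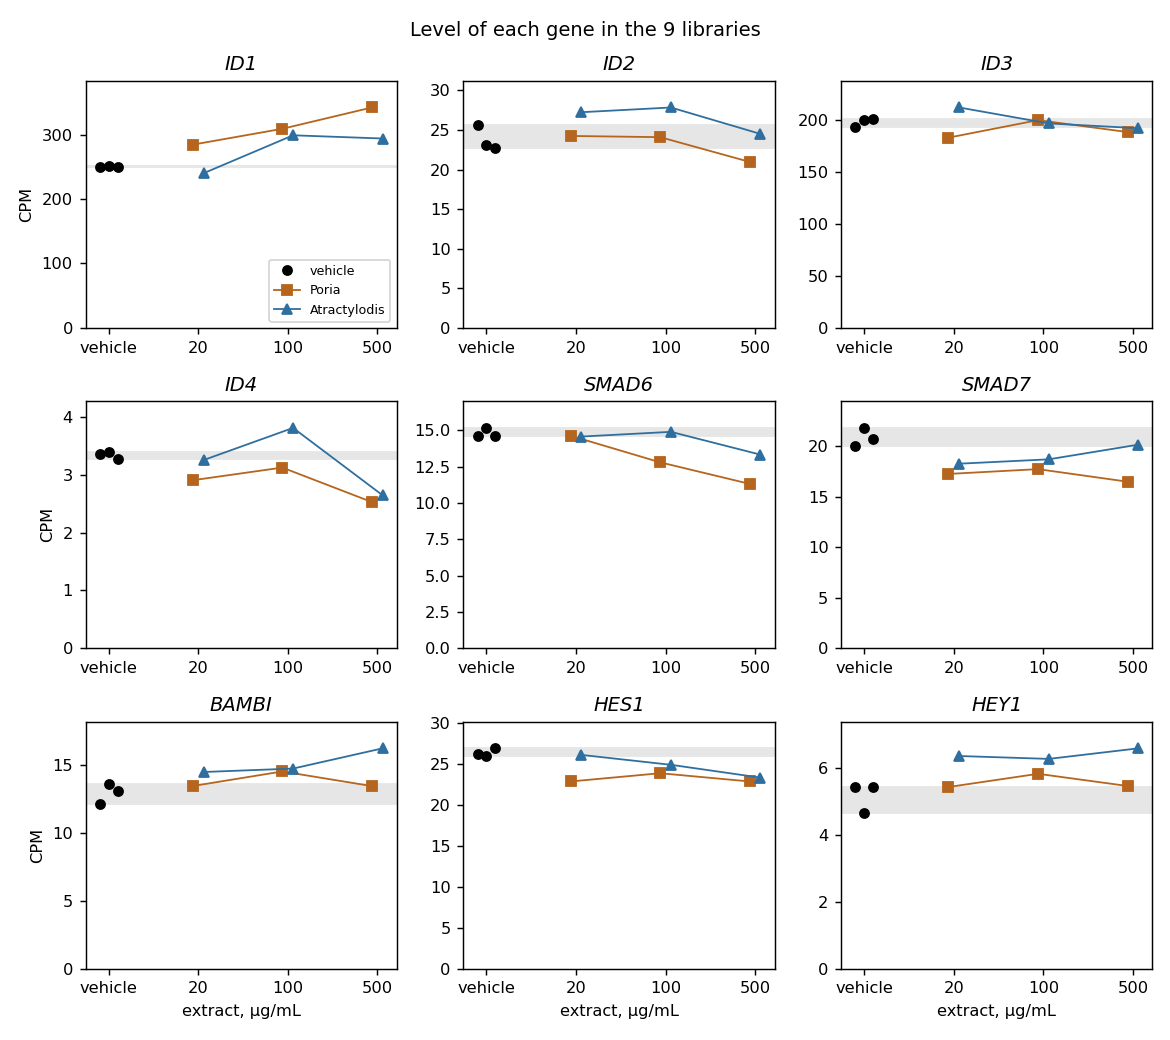
Level (CPM, linear axis from 0) of each of the 9 genes in every library, with vehicle as black circles and its range in grey, Poria as squares and Atractylodis as triangles against the dose in µg/mL. ID1 reached 342 CPM at the top dose of Poria from 250.03 to 252 CPM in vehicle, and SMAD6 went down to 11.3 CPM.

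ID1 (ENSG00000125968, GRCh38 chromosome 20, 31605283 to 31606515, plus strand), a BMP target that encodes an inhibitor of bHLH factors, was at 250.5, 252 and 250.03 CPM in the 3 vehicle libraries. It was at 284, 309 and 342 CPM with 20, 100 and 500 µg/mL of Poria. Each Poria library was above every vehicle library, and the order followed the dose. The slope was 0.16 ± 0.02 (SE, 9 libraries; edgeR adjusted p = 0.00011). With Atractylodis ID1 was at 240.0, 299 and 294 CPM, so the lowest dose lay below the vehicle range and the other 2 doses above it. The Atractylodis slope was 0.09 ± 0.02 (edgeR adjusted p = 0.0073). ID1 was called for Poria in each of the 9 fits that left out 1 library (adjusted p from 4.66e-05 to 0.0032), and its Atractylodis call ended without the library at 500 µg/mL (slope 0.10, adjusted p = 0.0756).

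Slopes set by the 3 treated doses alone, which do not use the vehicle level, were also positive for ID1, at 0.13 ± 0.03 for Poria and 0.15 ± 0.03 for Atractylodis (edgeR adjusted p = 0.043 and 0.023). The share of all genes called in these fits was 2.45% for Poria (1.2% up and 1.25% down) and 4.04% for Atractylodis (1.5% up and 2.54% down). The Atractylodis slope rested on the library at 20 µg/mL: without it the value was -0.02 (adjusted p = 0.918). For Poria the call ended when any 1 of the vehicle or Poria libraries was left out, with adjusted p between 0.0516 (without 100 µg/mL) and 0.99 (without 500 µg/mL), while the slope stayed between 0.12 and 0.15.

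The other ID genes, which encode the same kind of bHLH inhibitor, did not pass either trend. ID3 (ENSG00000117318) was at 193, 200.2 and 201 CPM in vehicle and from 183 to 212 CPM in the treated libraries. The treated libraries thus lay on both sides of the vehicle range, with slopes of -0.02 ± 0.02 for Poria and -0.01 ± 0.02 for Atractylodis (edgeR adjusted p = 0.43 and 0.87). ID2 (ENSG00000115738) was at 25.6, 23.0 and 22.8 CPM in vehicle, at 24.2, 24.1 and 21.0 CPM with rising Poria dose, and at 27.2, 27.8 and 24.5 CPM with Atractylodis. The top dose of Poria was below the vehicle range and the 20 and 100 µg/mL libraries of Atractylodis were above it. Its slopes were -0.06 ± 0.03 and 0.03 ± 0.03 (edgeR adjusted p = 0.20 and 0.50).

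ID4 (ENSG00000172201) was at 3.37, 3.39 and 3.26 CPM in vehicle and at 2.90, 3.12 and 2.53 CPM with rising Poria dose. All 3 Poria libraries lay below vehicle, but the slope of -0.12 ± 0.05 did not pass (edgeR adjusted p = 0.12). With Atractylodis it was at 3.25, 3.81 and 2.64 CPM. The antisense gene LNC-LBCS overlaps ID4 on the other strand and held 61.4% as many counts as ID4 over the 9 libraries. The library kit keeps the strand, but the strand setting of the counting is not given in the sources used here, so reads of the pair may not be told apart.

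SMAD6 (ENSG00000137834, GRCh38 chromosome 15, 66702228 to 66782848, plus strand), an inhibitory SMAD that acts mainly on BMP signals, fell with the dose of Poria. It was at 14.6, 15.2 and 14.6 CPM in vehicle and at 14.6, 12.8 and 11.3 CPM with 20, 100 and 500 µg/mL. The lowest dose lay inside the vehicle range and the other 2 below it. The slope was -0.12 ± 0.03 (edgeR adjusted p = 0.0037), and over the 3 treated doses alone it was -0.19 ± 0.05 (edgeR adjusted p = 0.042). Atractylodis gave 14.6, 14.9 and 13.3 CPM and no call (-0.04 ± 0.03, edgeR adjusted p = 0.29). Without the Poria library at 500 µg/mL the trend was -0.10 (adjusted p = 0.138) and the slope of the treated doses -0.19 (0.976). That second call also ended without Poria at 20 µg/mL (0.565) and without any 1 of the vehicle libraries (0.0676, 0.0554 and 0.0632 for replicates 1, 2 and 3).

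SMAD7 (ENSG00000101665, GRCh38 chromosome 18, 48919853 to 48952052, minus strand), an inhibitory SMAD of both the TGF-beta and BMP branches, was at 20.1, 21.8 and 20.7 CPM in vehicle. With rising Poria dose it was at 17.3, 17.7 and 16.5 CPM, and with Atractylodis at 18.3, 18.7 and 20.2 CPM. Of the 6 treated libraries 5 lay below vehicle, and Atractylodis at 500 µg/mL lay inside its range. The Poria slope was -0.10 ± 0.03 (edgeR adjusted p = 0.017), but over the 3 treated doses alone it was -0.03 ± 0.04 (edgeR adjusted p = 0.79). SMAD7 was the 1 member called when the 6 treated libraries were set against vehicle (log2 change -0.20 ± 0.06, edgeR adjusted p = 0.016), where 25.3% of all genes were called (12% up and 13.3% down). Without vehicle replicate 2 the trend and this shift had adjusted p = 0.0624 and 0.0908, and without Poria at 500 µg/mL the trend had 0.0875.

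BAMBI (ENSG00000095739, GRCh38 chromosome 10, 28677342 to 28682939, plus strand) encodes a receptor-like protein without a kinase domain that blocks BMP and TGF-beta receptors. It was at 12.1, 13.6 and 13.1 CPM in vehicle and at 14.5, 14.8 and 16.3 CPM with rising Atractylodis dose, each above every vehicle library. The slope was 0.10 ± 0.03 (edgeR adjusted p = 0.016). With Poria BAMBI was at 13.5, 14.6 and 13.5 CPM, and the slope of 0.03 ± 0.03 did not pass (edgeR adjusted p = 0.45). The Atractylodis call ended without vehicle replicate 1 (0.08, adjusted p = 0.0661) and without Atractylodis at 500 µg/mL (0.10, adjusted p = 0.209).

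HES1 (ENSG00000114315, GRCh38 chromosome 3, 194136145 to 194138732, plus strand), the Notch target whose promoter is shown above, was at 26.2, 25.9 and 26.9 CPM in vehicle. It was at 22.8, 23.8 and 22.8 CPM with rising Poria dose, all below vehicle and in no order of dose. The slope of -0.07 ± 0.02 passed (edgeR adjusted p = 0.030), while over the 3 treated doses alone it was -0.001 ± 0.04 (edgeR adjusted p = 0.998). Atractylodis gave 26.1, 24.9 and 23.3 CPM with rising dose, and the slope did not pass (-0.05 ± 0.02, edgeR adjusted p = 0.19). The Poria call ended without any 1 of vehicle replicates 1, 2 and 3 (adjusted p = 0.0696, 0.0581 and 0.083), without Poria at 500 µg/mL (0.0895) and without Poria at 100 µg/mL (0.0578).

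HEY1 (ENSG00000164683, GRCh38 chromosome 8, 79764010 to 79767863, minus strand), the second Notch target, encodes a repressor related to HES1. It was at 5.43, 4.66 and 5.42 CPM in vehicle, at 5.42, 5.82 and 5.45 CPM with rising Poria dose and at 6.35, 6.26 and 6.58 CPM with Atractylodis. All Atractylodis libraries were above vehicle at similar levels. The Atractylodis slope was 0.12 ± 0.04 (edgeR adjusted p = 0.046) and the Poria slope 0.03 ± 0.04 (edgeR adjusted p = 0.69). The call ended in 6 of the 9 fits that left out 1 library, namely vehicle replicates 1, 2 and 3 (adjusted p = 0.0851, 0.143 and 0.0839), Poria at 20 µg/mL (0.05) and Atractylodis at 100 and 500 µg/mL (0.0981 and 0.161). DESeq2 gave adjusted p = 0.0877.

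**Figure D2:**
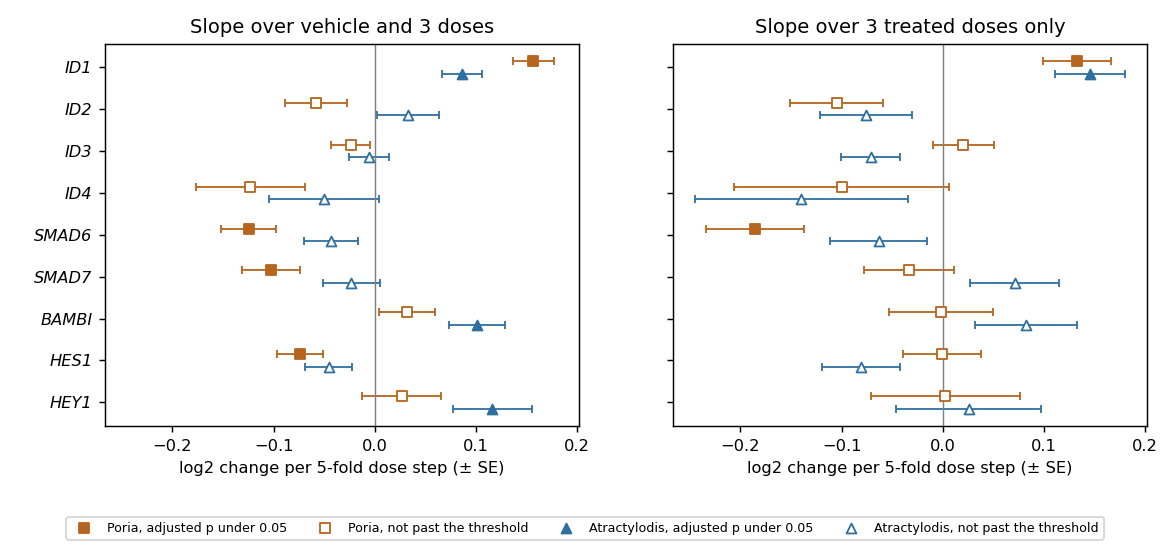
Slope of each gene as log2 change per 5-fold dose step (± SE), over vehicle and 3 doses on the left and over the 3 treated doses on the right, with filled symbols for an adjusted p under 0.05. ID1 was positive and called in all 4 fits, with slopes of 0.16 and 0.09 on the left and 0.13 and 0.15 on the right.

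The libraries of an extract were also read without a model. All 3 Poria libraries lay above every vehicle library for ID1 and below for ID4, SMAD7 and HES1, which is 4 of 9 genes where 41% of all genes tested did not overlap (20.3% above and 20.8% below). All 3 Atractylodis libraries lay above vehicle for BAMBI and HEY1, which is 2 of 9 genes against 38.2% (19.1% above and 19.1% below). Over the 6 treated libraries together, 0 of 9 genes were clear of the vehicle range, against 26.1% of all genes. By this count the members' share for Poria was close to the background, and the other 2 shares were below it.

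**Figure D3:**
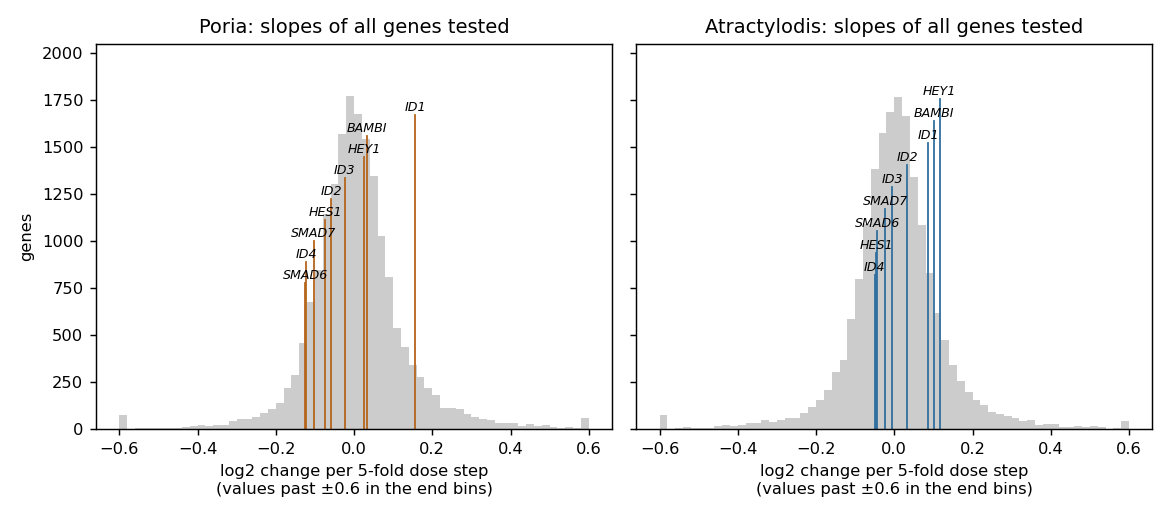
Number of the 18356 genes tested by slope (log2 change per 5-fold dose step) for each extract, in grey, with the slopes of the 9 genes as lines of arbitrary height. ID1 is the member farthest to the right for Poria (0.16) and HEY1 for Atractylodis (0.12).

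The members' slopes were spread over the distribution of all genes. ID1 had a Poria slope higher than 91.3% of all genes tested, and SMAD6 one higher than 8.95%. For Atractylodis the members ran from ID4, higher than 26.5% of genes, to HEY1, higher than 87.6%. The median Poria slope of the 9 genes was -0.06, beside 0.00 over all genes, and the median Atractylodis slope was -0.01, beside 0.00.

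Whether the extracts differed was tested as the difference between the slopes, Poria minus Atractylodis. No member passed after adjustment by edgeR or by DESeq2, where edgeR called 1.16% of all genes. At an unadjusted p under 0.05, 6 of the 9 genes differed by edgeR, against 13.1% of all genes: ID1 was higher with Poria (0.07 ± 0.02, edgeR adjusted p = 0.16), and ID2, SMAD6, SMAD7, BAMBI and HEY1 were lower. These differences ran from -0.09 ± 0.03 for ID2 (edgeR adjusted p = 0.23) to -0.07 ± 0.03 for BAMBI (0.33). ID3, ID4 and HES1 differed by -0.02 ± 0.02, -0.07 ± 0.06 and -0.03 ± 0.03. Because the 9 genes were chosen with earlier results of these data known, the share of 6 of 9 is not a result about the set. Without the filter on low counts ID1 passed this test (0.07, edgeR adjusted p = 0.0267). That fit called 555 of all genes in place of 213, and ID1 passed in 0 of the 9 fits that left out 1 library. A difference between the extracts is thus not shown for ID1. For the other genes too, a trend called for 1 extract and not for the other is not shown to differ between them.

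Genes of higher GC content had lower changes from vehicle, with a Spearman rho of -0.298 across 18214 genes between GC content and the change of the treated libraries. Genes are not independent replicates, so no test is given. ID1, SMAD6 and SMAD7 had GC contents of 58.6%, 58.9% and 58.7% in their longest transcripts, where the median gene had 48.2%. HES1, BAMBI and HEY1 had 49.9%, 51.0% and 47.3%. With offsets for GC content and transcript length, the Poria slope of ID1 was 0.21 (adjusted p = 0.00131) and that of SMAD6 was -0.09 (0.0431). SMAD7 and HES1 lost their Poria calls with these offsets (-0.07, adjusted p = 0.119, and -0.05, 0.114). Against vehicle, the 6 treated libraries then gave SMAD7 -0.13 (adjusted p = 0.13), which ended that call, and BAMBI 0.205 (0.0265), which passed. For Atractylodis, ID1 and BAMBI kept their calls (0.125, adjusted p = 0.0147, and 0.12, 0.00956) and HEY1 did not (0.12, 0.051). Within the treated libraries the offsets left SMAD6 called for Poria (-0.18, 0.0428) and ended the ID1 calls for both extracts (0.15, 0.333 for Poria and 0.20, 0.247 for Atractylodis).

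**Figure D4:**
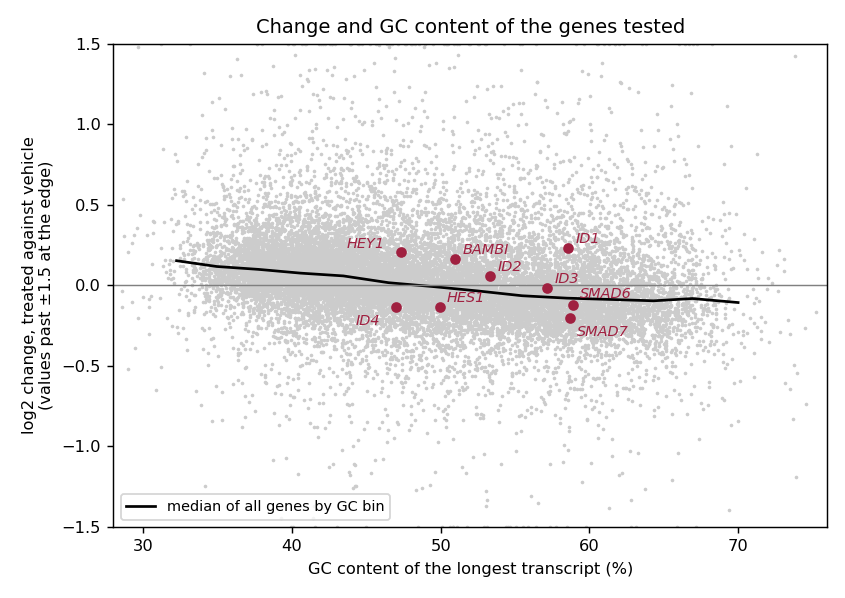
Log2 change of the 6 treated libraries against vehicle (vertical axis) by GC content of the longest transcript in % (horizontal axis), with 1 grey dot per gene tested, the median by GC bin as a line and the 9 genes in colour. ID1 lies above the line of genes with its GC content (0.23), and SMAD7 below it (-0.20).

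Upstream of these genes, TGFB1, BMP4, ENG, FSTL3 and NBL1 fell with both extracts. The counts of ligand, receptor, inhibitor and other pathway genes that follow are trends over vehicle and 3 doses, and stand beside 20.8% of all genes called for Poria (9.16% up and 11.6% down) and 19% for Atractylodis (8.49% up and 10.5% down). Such a trend includes the difference to vehicle. Of the trends named for these lists, LFNG for Poria and FSTL3, NOTCH1, DTX2 and TCF3 for Atractylodis also passed over the treated doses alone. There 2.45% and 4.04% of all genes passed. For the other named trends a change with dose apart from the difference to vehicle is not shown. JUNB, for example, was at 51.4, 50.4 and 51.4 CPM with rising Poria dose. Of 18 listed ligand genes 14 were tested, and BMP4 and TGFB1 were the 2 that passed for Poria. BMP4, a BMP ligand, fell from 10.1 ± 0.70 CPM in vehicle (SD, n = 3) to 7.84 CPM at 500 µg/mL of Poria (slope -0.10 ± 0.03, edgeR adjusted p = 0.033) and 7.63 CPM with Atractylodis (-0.13 ± 0.03, 0.014). TGFB1, the main TGF-beta ligand gene, fell from 549 ± 8.37 CPM to 439 and 462 CPM (edgeR adjusted p = 0.0019 and 0.014). With Atractylodis 1 ligand gene rose beside these 2 that fell, TGFB3 (0.12 ± 0.03, edgeR adjusted p = 0.0060). The median slope of the list was -0.02 for Poria and -0.04 for Atractylodis.

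Of the 14 receptor genes tested, 1 rose and 1 fell with each extract. ENG, which encodes the co-receptor endoglin, fell from 322 ± 0.97 CPM to 262 and 273 CPM at 500 µg/mL of Poria and Atractylodis (slopes -0.10 ± 0.02 and -0.08 ± 0.02, edgeR adjusted p = 0.00047 and 0.0027). ACVR2B, an activin type II receptor gene, rose with Poria (0.13 ± 0.04, edgeR adjusted p = 0.028) and TGFBR3, the betaglycan gene, with Atractylodis (0.11 ± 0.04, 0.047). Secreted inhibitors had 11 genes tested, of which 1 rose and 2 fell with Poria and 1 rose and 3 fell with Atractylodis. FSTL3 and NBL1, which bind activins and BMPs, fell with both, FSTL3 by 0.14 and 0.17 per step (edgeR adjusted p = 0.00047 and 0.00030). NOG, the noggin gene, fell with Atractylodis by 0.33 per step (edgeR adjusted p = 0.017) from only 1.39 ± 0.19 CPM. GREM1, the gremlin gene, had no call from vehicle but rose over the 3 treated doses of Poria (0.36, edgeR adjusted p = 9.7e-05) and of Atractylodis (0.20, 0.018). It stood at 19.4 ± 1.03 CPM in vehicle, at 16.2, 18.7 and 26.4 CPM with Poria and at 15.4, 17.7 and 20.4 CPM with Atractylodis.

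Among 16 SMAD and modulator genes, all tested, 3 rose and 3 fell with Poria, and 2 rose and 4 fell with Atractylodis, where 20.8% and 19% of all genes passed. SMAD5, a BMP effector gene, rose from 104 ± 1.65 CPM to 124 and 117 CPM at 500 µg/mL of Poria and Atractylodis (slopes 0.08 ± 0.02 and 0.07 ± 0.02, edgeR adjusted p = 0.0022 and 0.0084). PMEPA1, a TGF-beta target that restrains SMAD2 and SMAD3, fell from 229 ± 2.27 CPM to 158 and 176 CPM (-0.17 ± 0.02 and -0.12 ± 0.02, edgeR adjusted p = 0.00018 and 0.0023). The SMAD corepressor gene SKI fell with both (-0.10 and -0.08, edgeR adjusted p = 0.00088 and 0.0043). SMURF2, a ubiquitin ligase gene that works with SMAD7, fell with Atractylodis (-0.15 ± 0.03, edgeR adjusted p = 0.0038). The others that passed were SMAD9 and PPM1A (up) and SKIL (down) for Poria, and PPM1A (up) and TGIF2 (down) for Atractylodis.

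Other SMAD targets had 13 of 13 genes tested, with 1 up and 4 down for Poria and 4 down for Atractylodis, beside 11.6% and 10.5% of all genes down. JUNB, an AP-1 factor gene, fell with both (-0.11 and -0.12, edgeR adjusted p = 0.0046 and 0.0041). SNAI2, a repressor of epithelial genes, and TGFBI, a matrix gene, fell with Poria, where KLF10, a TGF-beta induced zinc finger gene, rose (0.05 ± 0.02, edgeR adjusted p = 0.049). MSX1 and GATA2, transcription factor genes of BMP-responsive tissues, fell with Atractylodis (edgeR adjusted p = 0.026 and 0.031). The median slope of this list was -0.07 for Poria and -0.08 for Atractylodis, beside 0.00 over all genes.

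On the Notch side, 8 of 10 listed ligand and receptor genes were tested. NOTCH1 fell with both extracts, from 58.5 ± 1.41 CPM to 52.7 and 46.8 CPM at 500 µg/mL of Poria and Atractylodis (-0.06 ± 0.02 and -0.10 ± 0.02, edgeR adjusted p = 0.035 and 0.0014). NOTCH3 rose with Atractylodis from 14.5 ± 0.54 to 18.1 CPM (0.10 ± 0.03, edgeR adjusted p = 0.0093), and no other gene of this list passed. Processing and nuclear factors had 26 genes tested, with 1 up and 6 down for Poria and 1 up and 5 down for Atractylodis. Of all genes tested, 20.8% and 19% passed in either direction, and 11.6% and 10.5% passed as lower. No test of these shares is given. ADAM10, the protease that makes the first cut in activated Notch receptors, was the gene that rose (0.07 ± 0.02 for each, edgeR adjusted p = 0.018 and 0.012). SPEN, a corepressor gene that acts with RBPJ, fell with both (-0.08 and -0.11, edgeR adjusted p = 0.0073 and 0.00083). LFNG, a glycosyltransferase gene that tunes Notch receptors, fell with Poria from 4.08 ± 0.25 to 2.03 CPM (-0.28 ± 0.06, edgeR adjusted p = 0.0047). APH1A, PSENEN and RFNG also fell with Poria, and RFNG, MAML1 and DTX2 with Atractylodis.

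Other Notch targets were scarce: 4 of 8 were tested, and the smallest edgeR adjusted p of either trend was 0.32, for HES4 with Atractylodis. HES4, a relative of HES1, was lower in the treated libraries as a group (log2 change -0.54, edgeR adjusted p = 0.035). Of the bHLH partners and relatives 9 of 14 were tested, and 3 fell with each extract, where 11.6% of all genes fell with Poria and 10.5% with Atractylodis. TCF3, an E protein gene and a binding partner of ID proteins, fell with both extracts (-0.07 ± 0.02 and -0.10 ± 0.02, edgeR adjusted p = 0.035 and 0.0067), and so did BHLHE40, a bHLH repressor gene (edgeR adjusted p = 0.035 and 0.0048). BHLHE41 fell with Poria and TWIST1 with Atractylodis (edgeR adjusted p = 0.024 and 0.036).

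**Figure D5:**
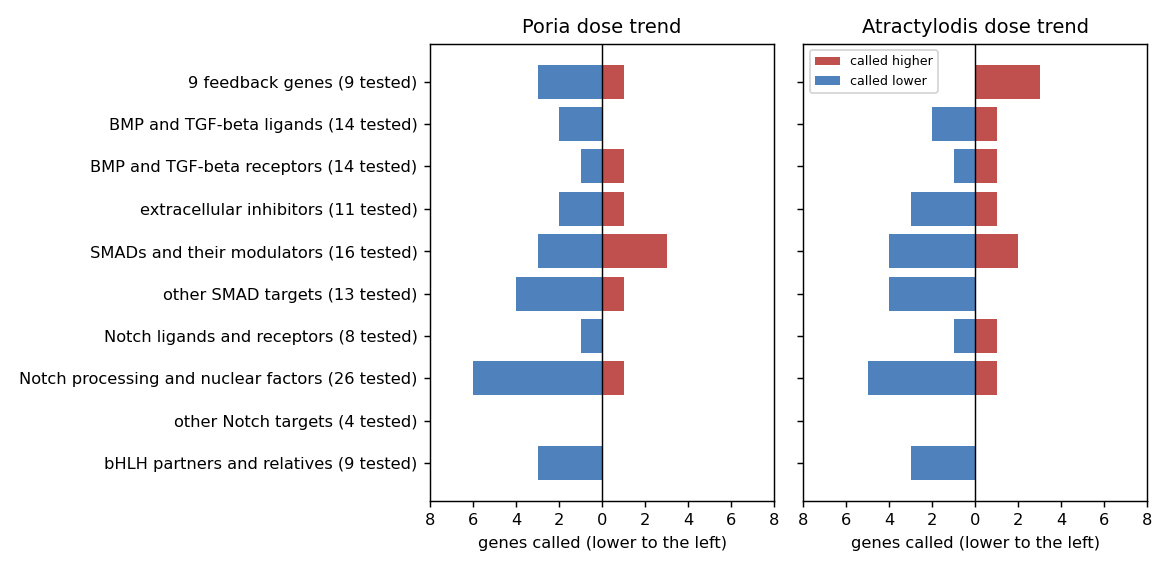
Number of genes called higher (right) and lower (left) at an adjusted p under 0.05 in each pathway list, for the Poria trend and the Atractylodis trend, with the number tested in brackets. The 9 feedback genes had 1 higher and 3 lower for Poria and 3 higher for Atractylodis, where 20.8% and 19% of all genes were called.

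In pattern over the 9 libraries, the genes closest to ID1 were HSPH1 (Pearson r of log2 CPM 0.992), POLR2B (0.987) and STK3 (0.980) among 11555 genes whose log2 CPM averaged 2 or more. Closest to SMAD7 were FMNL1 (0.964), PSMC4 (0.958) and RNF121 (0.958). STAC2 (0.971), CCDC157 (0.969) and AP2M1 (0.964) were closest to HES1. These r values describe 9 libraries in which treated and vehicle stand apart, and were the highest among many genes, so they carry no p.

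The libraries held between 40269708 and 48905602 counts. Counts of library pairs differed by a chi-square per degree of freedom of 2.46 to 3.44 between vehicle libraries and 3.47 to 21.6 between treated libraries, so no such pair agreed within sampling noise. Of 8 astrocyte markers, VIM, SOX9 and SLC1A3 were abundant in vehicle, at 5987 ± 164, 83.8 ± 0.90 and 21.4 ± 0.51 CPM, while the defining markers GFAP, S100B, AQP4 and ALDH1L1 were near 0, the highest being S100B at 0.11 ± 0.08 CPM. SLC1A2 was at 0.20 ± 0.07 CPM. The summed astrocyte markers, almost all from VIM, were at 5908 to 6219 CPM in vehicle and 4767 to 5474 CPM in treated libraries. For either trend 1 was up (SLC1A3) and 2 were down (SOX9 and VIM) of 4 tested, where 20.8% and 19% of all genes passed. The 6 mesenchymal markers summed to 6599 to 6680 and 5351 to 6418 CPM, with 3 down for Poria and 2 for Atractylodis. The 5 endothelial markers summed to 30.2 to 32.9 and 33.3 to 41.3 CPM, almost all from KDR, which rose with both extracts. In vehicle TEK was at 1.55 ± 0.30, PECAM1 at 0.71 ± 0.15, VWF at 0.15 ± 0.01 and CDH5 at 0 CPM. The 4 myeloid markers summed to 175 to 183 and 133 to 164 CPM, almost all from CD68, which fell with both. PTPRC was at 8.73 ± 0.41, CSF1R at 2.87 ± 0.24 and AIF1 at 0.0085 CPM in vehicle. Neuronal, oligodendrocyte and epithelial markers summed to at most 134, 7.72 and 0.13 CPM in any library, and of them TUBB3 fell and MBP rose with Poria. Their part in the results above was not tested, and in bulk RNA fewer cells of a type and less RNA per cell cannot be told apart.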

How the data were processed

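RNA-seq of 9 libraries of SW1783 cells was analysed at the level of genes. Per the submitters' processing notes, the tools were FastQC 0.11.9, Trim Galore 0.6.5, STAR 2.7.3a and RSEM 1.3.3, and the build was hg38 (GRCh38). Libraries were made with a directional kit from RNA with an integrity number above 7 and read as pairs of 100 bases, per the labels' protocols. The sources used here do not give the annotation release. The authors deposited RSEM expected counts, not normalized, for 60675 Ensembl genes. Of its 279 columns, the 9 named for these libraries were read and 270 were not used here. Expected counts were rounded to whole numbers. Symbols came from a gene name table and GENCODE 29, which named 57055 genes, and the 3620 others held at most 0.033% of any library's counts. Positions, lengths and GC content came from GENCODE 29.

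Counts were scaled by TMM and tested by robust quasi-likelihood fits in edgeR 4.0.16 (R 4.3.3). The filterByExpr step by group (count minimum 10, total minimum 15) left 18356 genes and took out 42319. P-values were adjusted by Benjamini-Hochberg, and 0.05 was the threshold. The trend fit had 1 slope per extract over the steps 0, 1, 2 and 3 and 6 residual degrees of freedom. Treated against vehicle had 7, and the slopes within treated libraries, with an offset per extract, had 4. Of those 4, 2 come from the vehicle libraries. Each SE was taken from the log2 change and the root of its F statistic. No dose has a replicate. The GC and length correction used natural splines (5 degrees of freedom). DESeq2 1.42.0 was an alternative. Scripts were tested on simulated data. The members and lists were chosen with earlier results of these data known. Named genes are the 9 members, up to 4 genes per list with the smallest p in either trend, genes behind counts of 5 or fewer, and the 3 genes most like ID1, SMAD7 and HES1. GREM1 was named after its values were seen. Results of some listed genes are not reported here.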

Additional observations from a re-analysis of the deposited data

How the results depend on the processing

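No paired analysis was possible because all treated libraries carry replicate number 2, so the groups share fewer than 2 numbers. Of the member results under alternatives, 683 of 736 kept their side of the threshold, 43 lost the call and 9 gained one. The 683 include results called in neither fit whose sign changed. An example is the Poria trend of ID3, at 0.027 with GC and length offsets in place of -0.024. In 1 result a called slope reversed, the Atractylodis slope of ID1 within treated libraries. That slope ran from -0.024 (without the library at 20 µg/mL) to 0.316 (without 500 µg/mL) in place of 0.146. Members called under alternatives numbered as follows. With GC and length offsets, 2 passed for the Poria trend in place of 4, 1 in place of 2 within the Poria libraries and 0 in place of 1 within the Atractylodis libraries. On the linear dose scale 0 passed for Poria and 0 for Atractylodis, and of all genes called (125 and 67) 61.6% and 61.2% were higher in place of 44.1% and 44.6%. Without the filter 1 passed for the difference between trends (ID1) in place of 0. DESeq2 called 3 for treated against vehicle (ID1 and HES1 beside SMAD7) and 1 within Poria (SMAD6 had no adjusted p there), and RLE scaling 2 for treated against vehicle in place of 1. Leaving out 1 library gave 1 to 4 for the Poria trend, 0 to 3 for Atractylodis, 0 to 0 for the difference, 0 to 3 for treated against vehicle, 0 to 2 within Poria and 0 to 1 within Atractylodis. Over all genes these fits called 2552 to 4242, 1035 to 4297, 0 to 300, 2986 to 5353, 16 to 657 and 102 to 1196, in place of 3815, 3495, 213, 4639, 449 and 742. For the difference DESeq2 called 328, no filter 555 and the linear dose 54. Within Poria DESeq2 called 240 and no filter 685, and within Atractylodis the offsets 488. The cause of these changes was not tested. Depth was lowest for ID4 and HEY1.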
